A study of Homo sapiens with 9 samples.

Results

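The mitochondrial enzymes of fatty acid oxidation were followed through 3 kidney cell lines by RNA-seq. The 10 genes were chosen by name, as the carnitine entry enzymes and the enzymes of the beta-oxidation spiral: CPT1A, CPT2, ACADVL, ACADM, ACADS, HADHA, HADHB, HADH, ECI1 and ACAA2. They are 10 of the 28395 genes in the count table, and all 10 were among the 12695 genes that passed the filter on low counts (50 or more on average). The lines were HK2, labelled as parental proximal tubule cells, 786-O, a line from a primary clear cell renal cell carcinoma (ccRCC), and 786-M1A, a derivative of 786-O. The study traces 786-M1A to lung metastases that formed after cells were injected in vivo. All 3 lines were kept without treatment in Plasmax, a medium that follows the nutrient composition of human plasma, and each gave 3 libraries. Each condition is a single cell line and its libraries come from replicate dishes, so p-values measure the spread between dishes and not between tumors or donors.

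Fatty acids are burned in mitochondria in rounds that each cut an acetyl-CoA from the chain. CPT1A, on the outer mitochondrial membrane, joins long-chain acyl groups to carnitine and is the main point of control, and CPT2 on the inner membrane turns them back to acyl-CoA. The acyl-CoA dehydrogenases for very long (ACADVL), medium (ACADM) and short chains (ACADS) start each round. The trifunctional protein, made of the subunits HADHA and HADHB, carries out the remaining steps on long chains, while HADH (hydroxyacyl-CoA dehydrogenase) and the thiolase ACAA2 act on shorter chains in the matrix. ECI1 is an isomerase that moves the double bond of unsaturated acids so that they can enter the spiral. The proximal tubule is among the tissues that rely most on fatty acids for energy, and ccRCC is known for its lipid droplets.

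The bases just before the start sites are shown for 4 of the genes, because these genes had the most different patterns among the 10: CPT1A and ACAA2 with the lowest levels relative to HK2, ECI1 with higher levels, and HADHA with nearly level counts. Each sequence holds the 250 bases upstream of the start of the MANE Select transcript (the transcript that RefSeq and GENCODE share), read from hg38, 5′ to 3′ on the strand of the gene. Capitals mark GGGCGG, the GC box, on either strand (CCGCCC).
CPT1A (chr11:68841917-68842166, minus strand, lower in both carcinoma lines): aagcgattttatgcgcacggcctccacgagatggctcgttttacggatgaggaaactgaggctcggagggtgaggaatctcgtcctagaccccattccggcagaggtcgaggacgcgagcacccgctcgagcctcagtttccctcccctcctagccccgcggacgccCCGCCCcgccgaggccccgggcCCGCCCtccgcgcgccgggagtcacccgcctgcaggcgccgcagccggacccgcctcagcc
ACAA2 (chr18:49813534-49813783, minus strand, lower in both carcinoma lines): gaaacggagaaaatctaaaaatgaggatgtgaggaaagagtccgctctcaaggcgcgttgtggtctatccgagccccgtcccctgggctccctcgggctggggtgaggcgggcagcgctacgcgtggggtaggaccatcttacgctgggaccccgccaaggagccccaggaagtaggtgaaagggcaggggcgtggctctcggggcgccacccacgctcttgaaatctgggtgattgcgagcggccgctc
ECI1 (chr16:2251588-2251837, minus strand, higher in both carcinoma lines): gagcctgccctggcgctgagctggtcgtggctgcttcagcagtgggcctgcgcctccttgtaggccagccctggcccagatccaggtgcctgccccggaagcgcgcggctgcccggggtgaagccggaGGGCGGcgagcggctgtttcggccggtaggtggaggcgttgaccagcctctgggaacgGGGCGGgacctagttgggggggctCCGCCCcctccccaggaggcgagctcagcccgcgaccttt
HADHA (chr2:26244633-26244882, minus strand, level in the 3 lines): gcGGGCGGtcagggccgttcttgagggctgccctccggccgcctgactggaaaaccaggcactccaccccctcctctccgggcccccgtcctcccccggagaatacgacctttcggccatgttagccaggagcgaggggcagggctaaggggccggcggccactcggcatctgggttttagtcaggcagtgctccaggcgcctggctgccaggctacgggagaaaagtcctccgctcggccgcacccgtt
A GC box was found in 9 of the 10 upstream windows, ACAA2 being the exception, against 42.6% of the 35116 upstream windows of the same length in the RefSeq promoter table of GRCh38.p14. The 10 windows held 62.8% to 74.4% G and C, and the windows behind the 42.6% were not matched for this. The GC box of the HADHA window is also in the HADHB window, since these windows overlap. CCAAT was found in the HADH window alone (32.0% of all windows) and ACGTG, the core of the hypoxia response element, in that of ACADVL alone (18.5%). CACGTG (6.34%), AGGTCA (12.1%) and AAGGTCA (3.44%), the letters of the E-box, a nuclear receptor site and an extended form of it, were in none of the 10 windows. CACGTG and AAGGTCA contain ACGTG and AGGTCA, respectively, and all motifs were searched on both strands. These matches describe letters in a short window and not binding. The windows of CPT1A and ACADVL lie inside the RefSeq span of their genes, since other transcripts of both start further upstream. HADHA and HADHB lie head to head on chromosome 2, with 306 bases between their starts, so that the HADHA window shown above ends 56 bases before the start of HADHB and the upstream windows of the pair largely overlap.

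The libraries held between 30212291 and 45362428 counts, and TMM factors were between 0.967 and 1.03. Levels are given as CPM, counts relative to the library total and scaled by these factors. Before this scaling, 3 counts correspond to at most 0.0993 CPM. Among kidney markers, the lineage factor PAX8 was at 160 to 192 CPM over the 9 libraries, but LRP2, a defining receptor of the proximal tubule, was at 0 counts in all libraries including HK2, and CUBN and AQP1 did not exceed 1.35 CPM. Of the carcinoma markers, VEGFA was at 18.8 to 19.8 CPM in HK2, 150 to 170 in 786-O and 327 to 334 in 786-M1A, while CA9 had at most 3 counts in any library. Of the 5 leukocyte genes, PTPRC, CD3E and MS4A1 were at 0 in all libraries and CD14 did not exceed 0.454 CPM, while CD68, a lysosomal protein of macrophages, was at 48.7 to 53.3 CPM in HK2, 26.3 to 27.4 in 786-O and 34.1 to 37.2 in 786-M1A. The 5 fibroblast genes summed to 72.8 to 81.6 CPM in HK2, 280 to 349 in 786-O and 20.4 to 24 in 786-M1A. COL1A1 made up most of that sum, with means of 53.8, 292 and 16.5 CPM, whereas LUM was at 22.5, 14.6 and 5.48 CPM, lower in 786-O than in HK2 (log2 fold change -0.62, adjusted p = 7.34e-09). COL3A1 had at most 3.75 CPM, and COL1A2 and DCN were near 0, with at most 7 counts in any library. The part of CD68 and of these collagen and matrix genes in the results below was not tested. In bulk RNA, fewer cells with a transcript and less transcript per cell cannot be told apart.

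Against HK2, the fatty acid oxidation mRNAs moved mostly down in the primary carcinoma line, with 2 exceptions. ACAA2 and CPT1A were lower by far, ACADVL, ACADS, ACADM, HADHB and HADH were lower by a modest amount, ECI1 and CPT2 were higher, and HADHA was not called. In numbers, 7 enzymes were lower and 2 higher in 786-O than in HK2 at an adjusted p under 0.05 (edgeR quasi-likelihood test, Benjamini-Hochberg), where 84.2% of all genes tested were called, 42.6% lower and 41.6% higher. The median log2 fold change of the 10 enzymes was -0.37, beside -0.013 for all genes tested. A difference of at least 2-fold was reached by 2 enzymes, CPT1A and ACAA2, and by 22.3% of all genes. The libraries of 786-O and HK2 did not overlap for 9 of the 10 enzymes, beside 85.5% of all genes.

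In 786-M1A against HK2, 7 enzymes were again lower, ECI1 was higher, and HADHA and CPT2 were not called, where 84.9% of all genes were called (43.3% lower and 41.6% higher). The median of the 10 was -0.43, beside -0.019 for all genes, and 2 enzymes passed 2-fold, beside 25.4% of all genes. For 8 enzymes the libraries did not overlap, beside 85.0% of all genes. Both comparisons use the same HK2 libraries, so they are not independent of each other. Since most genes differ between these lines, being called says little of an enzyme, and the sizes below carry the comparison.

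**Figure D1:**
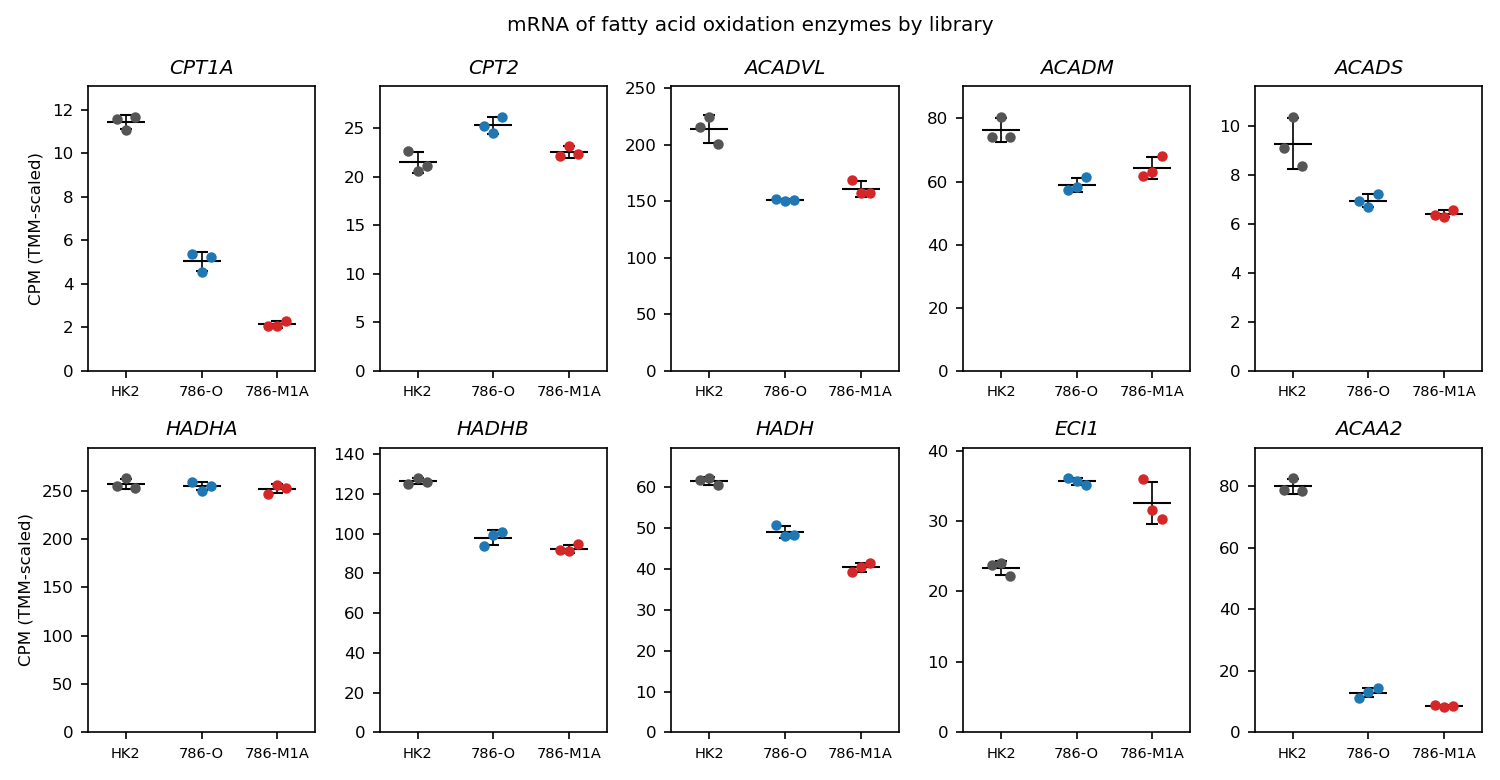
Level of each enzyme mRNA in CPM (TMM-scaled, axes from 0) in the 3 libraries of HK2 (grey), 786-O (blue) and 786-M1A (red), with the mean and SD as bars. CPT1A and ACAA2 step down from HK2 to 786-O to 786-M1A with no overlap, ECI1 is higher in both carcinoma lines, and HADHA lies between 247 and 263 CPM in all 9 libraries.

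CPT1A (NCBI gene 1374, chr11:68754620-68844277, minus strand), the gate for long-chain acyl groups, fell in steps through the 3 lines. Gene spans here and below are those of RefSeq on GRCh38.p14. Its levels were 11.6, 11.1 and 11.7 CPM in HK2, 5.37, 4.54 and 5.22 in 786-O, and 2.05, 2.06 and 2.30 in 786-M1A. The 3 groups of libraries did not overlap, and the lowest line still had 74 to 87 counts per library. The mean dropped from 11.5 ± 0.308 CPM (SD, n = 3) in HK2 to 5.04 ± 0.44 in 786-O, 2.26-fold lower (log2 fold change -1.18, SE 0.08, adjusted p = 8.73e-12). In 786-M1A it was 5.36-fold lower than in HK2 (log2 fold change -2.42, SE 0.096, adjusted p = 4.7e-16).

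CPT2 (NCBI gene 1376, chr1:53196824-53214197, plus strand), its partner on the inner membrane, did not follow. Its levels were 22.7, 20.6 and 21.1 CPM in HK2, 25.2, 24.5 and 26.2 in 786-O, and 22.1, 23.2 and 22.3 in 786-M1A. All 786-O libraries were above the HK2 libraries, by 1.18-fold on average (log2 fold change 0.24, SE 0.053, adjusted p = 0.000261), whereas the 786-M1A libraries overlapped those of HK2 (0.07, 95% interval -0.04 to 0.19, adjusted p = 0.213). CPT2 overlaps CZIB on the opposite strand, a gene of 28.7, 37.3 and 40.9 CPM on average in HK2, 786-O and 786-M1A, and the use of strand in counting is not given in the sources used here, so part of the CPT2 counts could belong to it.

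The dehydrogenases of the first step were all modestly lower in the carcinoma lines. ACADVL (NCBI gene 37, chr17:7217125-7225266, plus strand), for very long chains, was at 216, 225 and 201 CPM in HK2, 152, 150 and 151 in 786-O, and 169, 157 and 157 in 786-M1A. It was 1.42-fold lower in 786-O (log2 fold change -0.50, SE 0.042, adjusted p = 3.43e-10) and 1.33-fold lower in 786-M1A (-0.41, SE 0.042, adjusted p = 9.36e-09) than in HK2. ACADVL shares bases with DLG4 on the opposite strand, which had 10.2 CPM or less on average in each line.

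ACADM (NCBI gene 34, chr1:75724709-75763679, plus strand), for medium chains, was at 74.0, 80.6 and 74.2 CPM in HK2, 57.2, 58.3 and 61.3 in 786-O, and 61.8, 63.0 and 68.1 in 786-M1A. The HK2 libraries were the highest, with a log2 fold change of -0.37 (SE 0.048, adjusted p = 2.76e-07) in 786-O and -0.25 (SE 0.048, adjusted p = 6.44e-05) in 786-M1A. Its span in GENCODE 44, though not in RefSeq, overlaps RABGGTB on the same strand, whose level ran the other way (60.4, 87.3 and 72.9 CPM on average in HK2, 786-O and 786-M1A), so the division of reads between these genes is uncertain if the counting used such transcripts. In RefSeq too, ACADM overlaps DLSTP1 on the opposite strand, at 11.8, 7.84 and 9.52 CPM on average in the same order of lines. Part of the ACADM counts could belong to DLSTP1 if strand was not used.

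ACADS (NCBI gene 35, chr12:120725826-120740008, plus strand), for short chains, was the least abundant dehydrogenase, at 9.12, 10.4 and 8.37 CPM in HK2, 6.93, 6.72 and 7.23 in 786-O, and 6.39, 6.31 and 6.58 in 786-M1A. The lowest HK2 library was above the highest library of either carcinoma line. The log2 fold changes were -0.41 (SE 0.083, adjusted p = 0.000105) in 786-O and -0.53 (SE 0.085, adjusted p = 7.05e-06) in 786-M1A.

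The subunits of the trifunctional protein parted. HADHA (NCBI gene 3030, chr2:26190635-26244632, minus strand), the larger subunit, was at 255, 263 and 253 CPM in HK2, 259, 250 and 255 in 786-O, and 247, 256 and 253 in 786-M1A. These groups overlapped throughout, and the 95% intervals of the log2 fold change against HK2 were -0.09 to 0.06 in 786-O (adjusted p = 0.709) and -0.10 to 0.04 in 786-M1A (adjusted p = 0.439). HADHB (NCBI gene 3032, chr2:26244939-26290465, plus strand) was at 125, 128 and 126 CPM in HK2, 93.6, 99.2 and 101 in 786-O, and 91.6, 91.1 and 94.8 in 786-M1A. All HADHB values of the carcinoma lines were below those of HK2, by 1.29-fold in 786-O (log2 fold change -0.37, SE 0.039, adjusted p = 1.3e-08) and by 1.37-fold in 786-M1A (-0.45, SE 0.039, adjusted p = 5.23e-10).

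The ratio of the pair within each library does not depend on the scaling of the libraries. HADHA counts were 2.03, 2.05 and 2.01 times the HADHB counts in HK2, 2.76, 2.52 and 2.53 times in 786-O, and 2.70, 2.81 and 2.67 times in 786-M1A. The ratio was thus higher in each carcinoma library than in any HK2 library. These ratios of counts were not corrected for gene length, so only their change between lines is read here. In HK2 the means of HADHA and HADHB were 98.9 and 86.4 CPM per kilobase of coding sequence, but 59.3 and 29.6 per kilobase of merged exons. The mean log2 ratio rose from 1.02 in HK2 to 1.38 in 786-O and 1.45 in 786-M1A, steps of 0.36 and 0.42 with exact two-sided permutation p = 0.1 each, which is the smallest p that 3 libraries against 3 can give. The carcinoma lines differed from each other by 0.07 (exact permutation p = 0.3). The RefSeq spans of HADHA and HADHB do not overlap, whereas in GENCODE 44, with transcripts that start elsewhere (chr2:26190635-26244672 and chr2:26243170-26290465), they do, on opposite strands. HADHA also overlaps GAREM2 in RefSeq. No pseudogene of either subunit was in the count table.

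**Figure D2:**
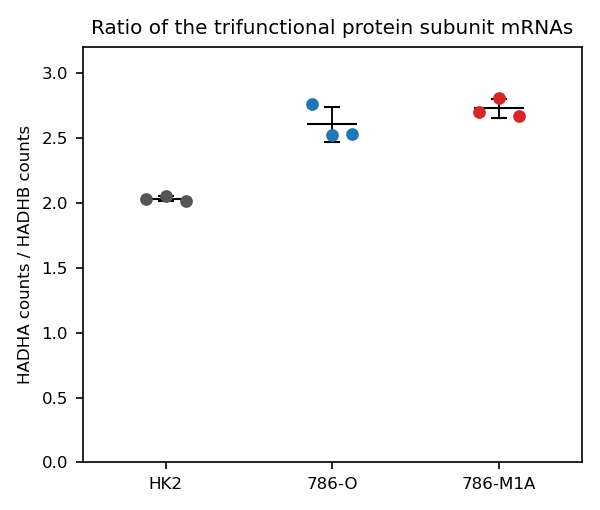
Ratio of HADHA to HADHB counts (linear axis from 0) in each library of HK2, 786-O and 786-M1A, with mean and SD. The HK2 libraries lie between 2.01 and 2.05, and the libraries of both carcinoma lines between 2.52 and 2.81.

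HADH (NCBI gene 3033, chr4:107989889-108035171, plus strand), the hydroxyacyl-CoA dehydrogenase for shorter chains, fell from 61.8, 62.3 and 60.6 CPM in HK2 to 50.9, 48.1 and 48.4 in 786-O and 39.3, 40.4 and 41.5 in 786-M1A. The 3 groups did not overlap. It was 1.25-fold lower in 786-O (log2 fold change -0.33, SE 0.042, adjusted p = 3.38e-07) and 1.52-fold lower in 786-M1A (-0.61, SE 0.043, adjusted p = 1.6e-11) than in HK2.

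ECI1 (NCBI gene 1632, chr16:2239402-2251587, minus strand), the isomerase for unsaturated chains, was the enzyme that was higher in both carcinoma lines. Its levels were 23.7, 24.1 and 22.2 CPM in HK2, 36.1, 35.7 and 35.1 in 786-O, and 36.0, 31.5 and 30.3 in 786-M1A. Every carcinoma library was above every HK2 library, by 1.53-fold in 786-O (log2 fold change 0.61, SE 0.058, adjusted p = 2.64e-09) and by 1.40-fold in 786-M1A (0.49, SE 0.059, adjusted p = 1.27e-07).

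ACAA2 (NCBI gene 10449, chr18:49782164-49813533, minus strand), the matrix thiolase that releases acetyl-CoA, had the largest difference of the 10 enzymes in both comparisons with HK2. It was at 78.8, 82.7 and 78.4 CPM in HK2, 11.3, 13.2 and 14.4 in 786-O, and 8.85, 8.14 and 8.51 in 786-M1A. The lines did not overlap, and the lowest library still had 312 counts. ACAA2 was 6.17-fold lower in 786-O (log2 fold change -2.63, SE 0.063, adjusted p = 1.29e-19) and 9.41-fold lower in 786-M1A (-3.23, SE 0.068, adjusted p = 1.17e-20) than in HK2. Only 5.44% of all genes tested had a lower log2 fold change in 786-O and 5.61% in 786-M1A. HADHB, the thiolase subunit for long chains, differed far less, as given above.

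**Figure D3:**
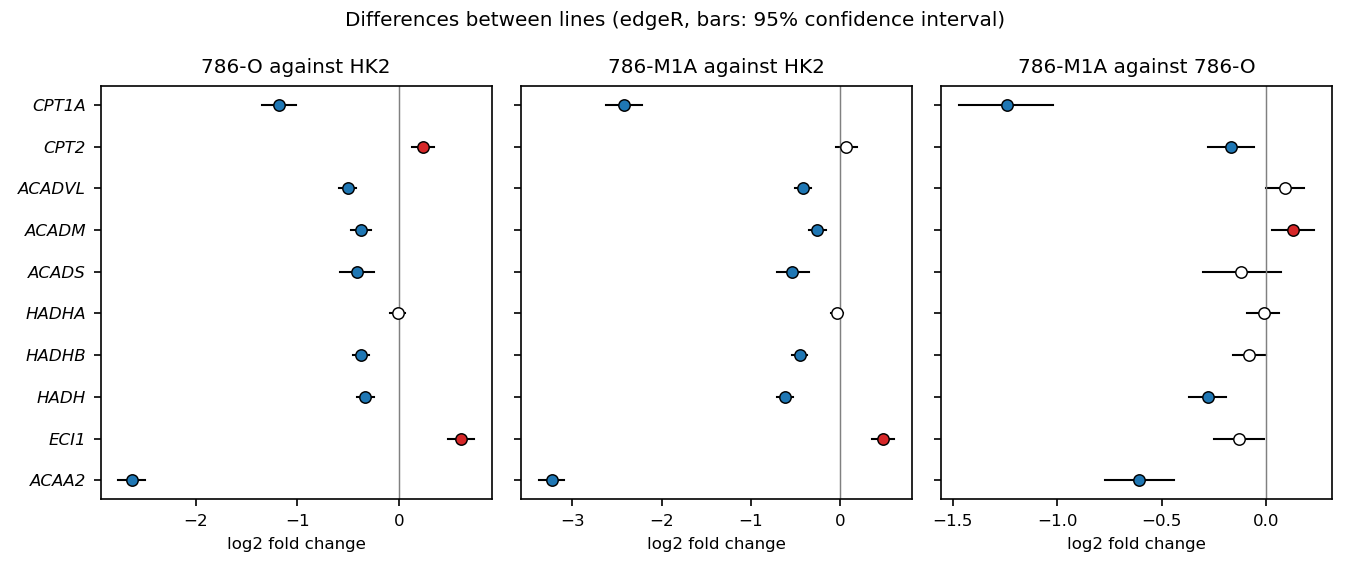
Log2 fold change of each enzyme (points) with its 95% confidence interval (bars) in the 3 comparisons, on axes of different range. Blue points were lower and red points higher at an adjusted p under 0.05, and white points were not called. CPT1A and ACAA2 stand to the left in each panel, and against HK2 the red points are ECI1 in both carcinoma lines and CPT2 in 786-O.

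The metastatic derivative differed from 786-O in 5 of the 10 enzymes, where 56.0% of all genes tested were called (28.0% lower and 27.9% higher). CPT1A, ACAA2, HADH and CPT2 were lower and ACADM was higher in 786-M1A, with a median over the 10 enzymes of -0.12 beside 0.0 for all genes. CPT1A alone passed 2-fold, as 6.59% of all genes did, and for 7 enzymes the libraries did not overlap, beside 61.6% of all genes. CPT1A was 2.37-fold lower (log2 fold change -1.24, SE 0.108, adjusted p = 2.62e-09), and 4.09% of all genes had a lower log2 fold change. ACAA2 was 1.52-fold lower (-0.61, SE 0.078, adjusted p = 1.16e-06) and HADH 1.22-fold lower (-0.28, SE 0.043, adjusted p = 1.05e-05). The calls for the smaller differences rested on individual libraries. CPT2 was lower by 0.17 on the log2 scale (log2 fold change -0.17, adjusted p = 0.01) and lost its call without 786-O replicate 3 (adjusted p = 0.0543). ACADM was higher (log2 fold change 0.13, adjusted p = 0.0312) and lost its call without 786-O replicate 1 (adjusted p = 0.0872), 786-O replicate 2 (0.0902) or 786-M1A replicate 3 (0.187). ACADVL (0.09, adjusted p = 0.0679), ACADS (-0.12, 0.278), HADHB (-0.08, 0.0881), ECI1 (-0.13, 0.0605) and HADHA (-0.01, 0.74) did not pass the threshold.

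The summed level of the 10 mRNAs was 857 to 908 CPM in the HK2 libraries, 690 to 704 in 786-O and 679 to 684 in 786-M1A. HADHA alone made up 29.2% of the sum in HK2, against 36.5% in 786-O and 36.9% in 786-M1A. The share of ACAA2 was 9.08%, 1.86% and 1.25% in the same order. Per kilobase of merged exons (RPKM), HADHA had the highest level in each line, with means of 59.3, 58.7 and 58.1 in HK2, 786-O and 786-M1A, followed by ACADVL (44.4, 31.3 and 33.4) and HADHB (29.6, 22.9 and 21.6). These 3 genes also ranked highest by coding length and by the length of the MANE transcript, though in another order in some lines. CPT1A was the lowest by all 3 lengths, with RPKM of 1.74, 0.768 and 0.325. ACAA2, by merged exons, went from the fourth place in HK2 (16.3) to the eighth in 786-O (2.64) and the ninth in 786-M1A (1.73). ECI1, also by merged exons, went from the fifth place (7.27) to the fourth (11.1 and 10.2). These places depend on the length used. By MANE length ECI1 was at place 7 in HK2 and 6 in both carcinoma lines, and ACAA2 at places 6, 8 and 9. By coding length ECI1 was at places 7, 4 and 4, and ACAA2 at 4, 8 and 8. In 786-O the libraries of ACADS (2.67), ACAA2 and CPT2 (2.51) overlapped, and no other neighbours in the orders by merged exons did.

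The genes with the pattern most like each enzyme were found by the Euclidean distance between log2 CPM values, centred for each gene, over the 9 libraries, which share depth and line for all genes. HKDC1 (0.296), ATRNL1 and TRIB1 were nearest to CPT1A. ACAA2 was nearest to RDUR (0.311), CTHRC1 and F2R, and HADHA to PCCB (0.0641), POLR2D and CTSC. Among the enzymes, HADHB was nearest to ACADS, as its 57th nearest gene at a distance of 0.235, while HADHB was only the 4195th nearest gene to HADHA (0.571). The nearest enzyme to ACAA2 was CPT1A, at rank 373 and a distance of 1.82.

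The remaining pathway was described by 8 lists with 118 genes, of which 92 passed the filter. Counts called in these lists stand beside the shares over all genes tested given above: 84.2% called in 786-O against HK2 (41.6% higher, 42.6% lower), 84.9% in 786-M1A against HK2 (41.6% higher, 43.3% lower) and 56.0% in 786-M1A against 786-O (27.9% higher, 28.0% lower). Fatty acid activation and uptake did not move as a unit: of 9 genes tested among 16, 5 were higher and 4 lower in each carcinoma line than in HK2. Values in the lists are means ± SD (n = 3) in HK2, 786-O and 786-M1A. The acyl-CoA synthetase ACSL1 rose from 11.6 ± 0.62 CPM in HK2 to 29.0 ± 0.186 in 786-O and 88.3 ± 2.44 in 786-M1A (log2 fold changes against HK2 of 1.32 and 2.93, adjusted p = 7.43e-16 and 1.81e-22). ACSL5, another synthetase, was at 17.0 ± 0.865, 1.23 ± 0.214 and 2.65 ± 0.601 CPM (-3.79 and -2.68, adjusted p = 4.94e-17 and 2.02e-15). FABP5, which carries fatty acids in the cytosol, was at 19.7 ± 1.43, 54.9 ± 1.33 and 95.1 ± 3.3 CPM (1.47 and 2.26, adjusted p = 7.19e-17 and 2.33e-20).

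Around the carnitine step, 5 of the 7 genes tested among 10 were higher in each carcinoma line than in HK2, with 2 lower in 786-O and 1 lower in 786-M1A, where 41.6% of all genes were higher in either comparison. The medians of 0.75 and 0.55 (log2) stood on the other side of 0 from the change of CPT1A. CRAT, the carnitine acetyltransferase, rose from 20.5 ± 0.327 CPM in HK2 to 78.8 ± 2.41 in 786-O and 101 ± 4.97 in 786-M1A (log2 fold changes of 1.94 and 2.30, adjusted p = 1.31e-19 and 5.86e-21). SLC22A4, a plasma membrane transporter, was at 1.92 ± 0.146, 4.37 ± 0.068 and 4.72 ± 0.449 CPM (1.19 and 1.30).

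Among the other mitochondrial beta-oxidation genes, 12 of the 20 tested (of 22) were lower and 6 higher in 786-O than in HK2, and 12 lower and 5 higher in 786-M1A. Their medians were -0.38 and -0.28, beside -0.37 and -0.43 for the 10 enzymes. ACOT2, a mitochondrial thioesterase, was at 12.3 ± 0.293, 2.54 ± 0.403 and 5.71 ± 0.135 CPM in HK2, 786-O and 786-M1A, so it was higher in the metastatic line than in 786-O (log2 fold change 1.16, adjusted p = 5.65e-09). ACAT1, the acetyl-CoA acetyltransferase at the end of ketone and isoleucine breakdown, rose from 50.1 ± 1.18 CPM in HK2 to 91.5 ± 1.29 in 786-M1A (0.87, adjusted p = 1.12e-14). The electron transfer flavoproteins and their partners, which take up the electrons of the dehydrogenases, split evenly in 786-O (3 higher and 3 lower of 6 tested among 7). ETFDH, the oxidoreductase of the inner membrane, was at 18.8 ± 0.725, 11.0 ± 0.292 and 18.3 ± 0.723 CPM, higher in 786-M1A than in 786-O (0.74, adjusted p = 1.22e-09).

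Peroxisomal beta-oxidation, which shortens very long chains, had 5 higher and 7 lower of 12 genes tested (of 14) in 786-O, and 4 higher and 5 lower in 786-M1A against HK2. EHHADH, the bifunctional enzyme, was at 40.3 ± 1.71, 26.5 ± 0.353 and 21.5 ± 0.189 CPM in the same order of lines (log2 fold changes against HK2 of -0.60 and -0.90). ACAA1, the peroxisomal thiolase, was at 26.5 ± 0.41, 29.6 ± 0.567 and 39.9 ± 1.92 CPM, higher in 786-M1A than in HK2 (0.59, adjusted p = 1.84e-10), while the mitochondrial ACAA2 was lower. Of 5 ketone body genes tested among 6, 4 were lower and 1 higher in each carcinoma line. BDH1, which interconverts the ketone bodies, was at 35.8 ± 0.973, 3.82 ± 0.305 and 1.36 ± 0.112 CPM (-3.22 and -4.71, adjusted p = 1.25e-20 and 4.96e-22), and OXCT1, which activates them for use, at 65.3 ± 2.32, 161 ± 4.29 and 155 ± 5.36 CPM (1.30 and 1.25, adjusted p = 1.05e-17 and 2.1e-17).

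Regulators of the pathway divided as well, with 9 higher and 8 lower of 20 tested (of 23) in 786-O, 7 higher and 10 lower in 786-M1A against HK2, and 2 higher and 8 lower in 786-M1A against 786-O. PPARGC1A, the coactivator of mitochondrial and fatty acid oxidation genes, was at 68.8, 64.0 and 65.9 CPM in HK2, 4.71, 4.70 and 4.96 in 786-O, and 0.111, 0.209 and 0.264 in 786-M1A. Its groups were far apart, with 4 to 10 counts per library left in 786-M1A (log2 fold changes against HK2 of -3.79 and -8.38, adjusted p = 1.29e-22 and 2.16e-24). PRKAA2, a catalytic subunit of AMP-activated kinase, was at 18.7, 20.3 and 20.7 CPM in HK2 and 7.78, 9.19 and 10.1 in 786-O, with 0, 3 and 1 counts in the 786-M1A libraries. Over the summed counts it was 563 times as high in HK2 as in 786-M1A (exact 95% interval 220 to 2067, counting error only). PRKAA1, the other catalytic subunit, was at 112 ± 4.36, 168 ± 7.56 and 167 ± 9.29 CPM, and RXRA, a partner of the PPAR receptors, at 70.0 ± 1.08, 170 ± 4.88 and 196 ± 3.05 CPM. Both were higher in each carcinoma line than in HK2 (log2 fold changes of 0.59 and 0.57 for PRKAA1, and of 1.28 and 1.49 for RXRA). RXRB, another such partner, was lower (-0.91 and -0.97), and so was the receptor PPARG (-1.37 and -2.39). PPARA was higher (0.43 and 0.34), and PPARD was not called against HK2 in either line. ACACB, which makes the malonyl-CoA that inhibits CPT1A, was at 15.5 ± 0.915, 3.53 ± 0.381 and 3.81 ± 0.0659 CPM (-2.13 in 786-O, adjusted p = 5.04e-16). ACACA, which also makes malonyl-CoA, did not follow, at 144 ± 11.4, 217 ± 12.9 and 146 ± 9.59 CPM. It was higher in 786-O than in HK2 (0.58, adjusted p = 4.52e-07) and not called in 786-M1A against HK2 (0.02, adjusted p = 0.763).

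PPAR and lipid droplet genes had 4 higher and 6 lower of 13 tested (of 20) in 786-O, 6 higher and 5 lower in 786-M1A against HK2, and 7 higher and 2 lower in 786-M1A against 786-O. MGLL, which completes the breakdown of triglycerides, was at 93.3 ± 4.67, 146 ± 5.72 and 252 ± 5.96 CPM (log2 fold changes of 0.65 and 1.43, adjusted p = 4.27e-12 and 2.78e-18). G0S2, an inhibitor of triglyceride lipase, was at 10.8 ± 1.46, 7.07 ± 0.565 and 23.6 ± 1.27 CPM, higher in 786-M1A than in 786-O (1.74, adjusted p = 4e-13). UCP2, an inner membrane carrier, was at 183 ± 6.57, 34.4 ± 1.1 and 19.6 ± 0.936 CPM (-2.41 and -3.22, adjusted p = 9.62e-22 and 1.84e-23). Over the 8 lists together, 38 genes were higher and 46 lower of 92 tested in 786-O against HK2, 36 higher and 43 lower in 786-M1A against HK2, and 33 higher and 24 lower in 786-M1A against 786-O. These are 91.3%, 85.9% and 62.0% of the list genes, beside 84.2%, 84.9% and 56.0% of all genes tested.

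**Figure D4:**
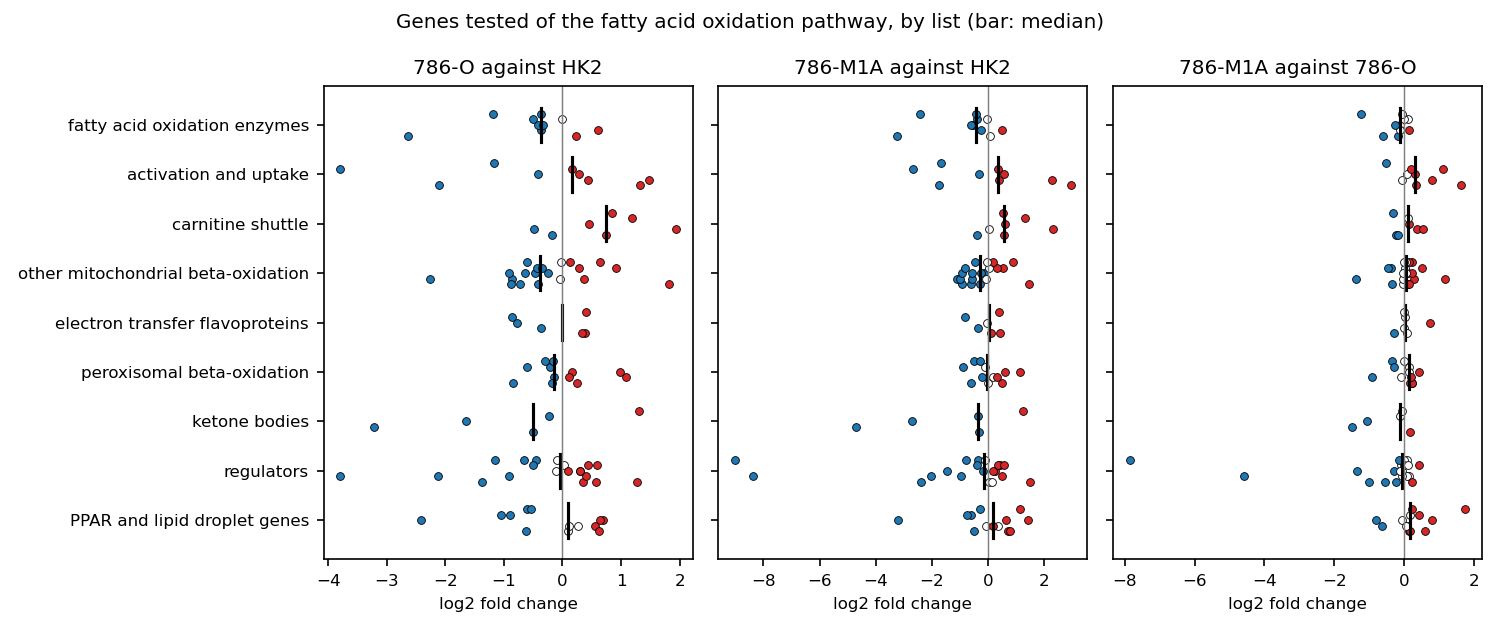
Log2 fold change of every gene tested in the 10 enzymes and the 8 lists of the pathway, by comparison, with the median of each list as a bar and with axes of different range. Blue points were lower, red points higher and white points not called. The enzymes and the other mitochondrial beta-oxidation genes lie mostly to the left against HK2, with medians between -0.43 and -0.28, and the carnitine shuttle genes mostly to the right.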

How the data were processed

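RNA was isolated from HK2, 786-O and 786-M1A cells grown in Plasmax, and counts per gene were generated by the authors from TruSeq Stranded mRNA libraries with Rsubread (featureCounts per the labels) on hg38. The authors deposited these whole-number counts without normalization. The annotation version and the use of strand are not given in the sources used here. Symbols came from RefSeq of GRCh38.p14 (27745 of 28395 identifiers matched). Gene spans came from the same RefSeq table, and lengths and start sites from GENCODE 44, because that table holds no exons. Groups were taken from the cell line in the labels.

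Genes averaging 50 counts or more were tested with edgeR 4.0.16 (R 4.3.3; TMM, robust quasi-likelihood, all 9 libraries in one fit, 3 contrasts), with Benjamini-Hochberg adjustment over 12695 genes and a threshold of 0.05. Standard errors were derived from the quasi-likelihood F statistic. The fit was tested on simulated counts with few genes changed, only in 786-O. That setting does not check scaling or error rates where most genes differ, as here. Exact two-sided permutation tests used scipy 1.17.1, and log2 CPM used a prior count of 2. Depth was 30212291 to 45362428 counts per library, and intervals on counts cover counting error only. The members and lists were chosen with earlier results of these data known. Named were all 10 enzymes, their 3 nearest genes, marker genes at issue and, among called genes without overlap, at most 2 in each direction per list and comparison, with values given for a subset. ACACA, RXRB, PPARA, PPARD and PPARG were added outside this rule after seeing the data, because they act beside regulators that it named. The alternatives were RLE, upper-quartile, DESeq2 1.42.0, limma-voom (limma 3.58.1), other filters, only the lines compared, a replicate block, leaving out each library, a 2-fold requirement, coding lengths, another prior count and MANE lengths, the last chosen after seeing the data.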

Additional observations from a re-analysis of the deposited data

Results flagged for a closer look

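For 5 enzymes the difference from HK2 was not the same in the carcinoma lines, by the edgeR test of 786-M1A against 786-O. That contrast is the difference between the comparisons with HK2, so these are the calls already given above. In it 56.0% of all genes tested were called, so the number of calls does not set the enzymes apart. CPT1A lay further below HK2 in 786-M1A than in 786-O (difference of log2 fold changes -1.24, adjusted p = 2.62e-09), as did ACAA2 (-0.61, adjusted p = 1.16e-06) and HADH (-0.28, adjusted p = 1.05e-05), each with no overlap between the libraries of the carcinoma lines. CPT2 was above HK2 in 786-O and nearer to it in 786-M1A (-0.17, adjusted p = 0.01). ACADM was below HK2 in both lines, less so in 786-M1A (0.13, adjusted p = 0.0312). The last pair of calls was lost without some libraries, as given above.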

How the results depend on the processing

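Of 420 recomputed enzyme results, 407 kept their direction and side of the threshold, 4 were no longer called, 6 became called and 3 changed sign. The sign changes were those of HADHA, which had no call. Its log2 fold change in 786-O against HK2 was 0.01 with no filter on low counts and -0.02 to 0.00 on leaving out libraries (0.00 without HK2 replicate 2), and in 786-M1A against 786-O -0.03 to 0.00 (0.00 without 786-O replicate 1). Under upper-quartile scaling HADHA became called in 786-M1A against HK2 (-0.08, adjusted p = 0.0482). ACADVL in 786-M1A against 786-O was called with no filter (adjusted p = 0.0393) and with only the lines compared (0.0481), so that 2 enzymes in place of 1 were higher there under either setting. Leaving out libraries gave 0 to 1 higher enzymes there, and HADHB was called without 786-O replicate 1 (adjusted p = 0.0456) and ECI1 without 786-M1A replicate 1 (adjusted p = 0.00191). The causes were not tested. Among the list genes named by the rule above that were tested, none changed its call or sign under these alternatives, leaving aside the 2-fold requirement given below. The regulators added outside that rule are not covered by this statement. PPARGC1A and PRKAA2 had 786-M1A libraries with fewer than 10 counts. They were therefore not tested under the alternative filter that removes such genes.

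With at least a 2-fold difference required in addition, 2 enzymes were called in 786-O against HK2 (0 higher, 2 lower), 2 in 786-M1A against HK2 (0 higher, 2 lower) and 1 in 786-M1A against 786-O (0 higher, 1 lower). Of the list genes, 20 (8 higher, 12 lower), 23 (10 higher, 13 lower) and 11 (4 higher, 7 lower) were called then, in place of 84, 79 and 57. The 2-fold calls are 21.7%, 25.0% and 12.0% of the list genes, beside 22.3%, 25.4% and 6.59% of all genes tested.

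No pairing by replicate number was seen between HK2 and either carcinoma line, whereas same-numbered libraries of 786-M1A and 786-O deviated weakly together. The reason was not tested. Deviations of same-numbered libraries correlated at -0.0573 to -0.0285 for 786-O and HK2, -0.167 to 0.0376 for 786-M1A and HK2, and 0.074 to 0.215 for 786-M1A and 786-O. With the replicate number as a block, 7157 genes in place of 7103 were called in 786-M1A against 786-O, and ECI1 was called there (adjusted p = 0.0392). Depth limits the statements on PRKAA2 and PPARGC1A in 786-M1A, with at most 10 counts per library.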
